A study of Schizosaccharomyces pombe with 6 samples.

Results

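The Tf2 retrotransposons are the long terminal repeat (LTR) elements that the reference strain of fission yeast (Schizosaccharomyces pombe) still holds as full-length copies. The 10 copies described here were chosen by their systematic names, as full-length Tf2 entries of the deposited expression table, and make up 10 of its 7016 features. In the order of their reference names they are Tf2-1 (SPAC9.04), Tf2-2 (SPAC167.08), Tf2-3 (SPAC2E1P3.03c), Tf2-4 (SPAC26A3.13c), Tf2-6 (SPAC27E2.08), Tf2-7 (SPAC13D1.01c), Tf2-8 (SPAC19D5.09c), Tf2-9 (SPBC9B6.02c), Tf2-11 (SPBC1289.17) and Tf2-12 (SPCC1020.14). The table also holds 3 other Tf2-type entries of the reference, Tf2-5, Tf2-10 and Tf2-13, whose values are given beside the 10. RNA came from asynchronous, exponentially growing cells in the rich medium YES. In 3 libraries the cells had received beta-estradiol in ethanol for 3 h, at 1 µM as the labels' unit is read here, and in 3 control libraries the vehicle alone. The series concerns an estradiol-inducible promoter, but its labels give neither the strain nor the construct. They call the libraries a biological triplicate without saying what separated the cultures, so p-values measure the spread between these libraries. Libraries are named by the numbers 0 to 2 that the table's columns carry.

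A Tf2 element is copied through RNA. Its transcript starts in the 5′ LTR, encodes a single polyprotein with Gag, protease, reverse transcriptase and integrase, and is both the messenger and the template for new DNA copies. In fission yeast the CENP-B homologues Abp1, Cbh1 and Cbh2 bind Tf2 LTRs and silence the elements with histone deacetylases, the HIRA histone chaperone and the Set1 methyltransferase complex also hold them down, and the transcription factor Sre1 activates them when oxygen is low.

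The copies are almost the same sequence, so their single values depend on how shared reads were divided. In the RefSeq annotation of assembly ASM294v3, which may differ from the authors' build, 11 of the 13 entries have an uninterrupted coding sequence of 4002 bases. These 11 sequences varied at 18 positions and fell into 4 versions. Tf2-1, Tf2-2, Tf2-4 and Tf2-9 were identical. Tf2-3, Tf2-5, Tf2-6 and Tf2-12 shared a second version that differed from the first at 2 bases, T153A and T617C, with positions counted from 1 at the first base of the start codon and the Tf2-1 base written first. Tf2-7 and Tf2-8 shared another version with 10 differences from Tf2-1. Tf2-11 stood alone, with 16 differences from Tf2-1 and 10 from Tf2-7. Tf2-10 and Tf2-13 have coding sequences of 3999 bases annotated in 2 parts and were not aligned.

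The stretches below hold 8 of the 18 variable positions and show how few bases separate the versions, whose proteins were not compared. They are read 5′ to 3′ on the coding strand of ASM294v3, from RefSeq, and capitals mark the positions that vary among the 11 copies. In positions 608 to 707 the Tf2-11 copy differs from Tf2-1 at 4 bases (T617C, C644T, T649C and G697A), while Tf2-3 and Tf2-7 differ at 1.
Tf2-1 (chrI:1466454-1466553, plus strand): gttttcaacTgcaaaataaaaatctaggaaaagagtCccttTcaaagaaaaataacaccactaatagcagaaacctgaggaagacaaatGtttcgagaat
Tf2-3 (chrI:2930499-2930598, minus strand): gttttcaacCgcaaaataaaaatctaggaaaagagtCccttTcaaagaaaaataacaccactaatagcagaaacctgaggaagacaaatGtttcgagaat
Tf2-7 (chrI:5194439-5194538, minus strand): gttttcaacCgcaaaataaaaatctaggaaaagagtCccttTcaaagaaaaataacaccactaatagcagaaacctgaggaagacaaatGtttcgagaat
Tf2-11 (chrII:4415264-4415363, plus strand): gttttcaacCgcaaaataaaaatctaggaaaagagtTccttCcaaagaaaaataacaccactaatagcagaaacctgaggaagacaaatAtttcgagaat
In positions 1610 to 1709 the grouping is another one. Tf2-7 and Tf2-11 carry the same 4 changes from Tf2-1 (C1619T, C1667T, A1677G and G1699A), and Tf2-3 carries none.
Tf2-1 (chrI:1467456-1467555, plus strand): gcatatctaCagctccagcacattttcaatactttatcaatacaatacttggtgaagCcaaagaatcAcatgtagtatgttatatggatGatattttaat
Tf2-3 (chrI:2929497-2929596, minus strand): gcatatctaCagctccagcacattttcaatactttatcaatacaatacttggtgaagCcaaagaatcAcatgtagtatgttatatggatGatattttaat
Tf2-7 (chrI:5193437-5193536, minus strand): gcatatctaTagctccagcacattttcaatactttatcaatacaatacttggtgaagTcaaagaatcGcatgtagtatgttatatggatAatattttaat
Tf2-11 (chrII:4416266-4416365, plus strand): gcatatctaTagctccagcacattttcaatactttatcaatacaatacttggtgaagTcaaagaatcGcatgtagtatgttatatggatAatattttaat

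Reads of these libraries were 151 bases long, so each copy was cut into all of its windows of that length and each window was searched in the whole reference, on both strands and without mismatches. A window found once marks a read that belongs to 1 place, although the mate of a pair can add information that this count does not hold. Of the 10 copies, 8 had no window found once. Tf2-11 had 888 such windows of 3852, or 23.1%, between positions 190 and 2805 of the gene. Tf2-2 had 76 of 3967, all at its 3′ end, where its annotated gene runs 115 bases past the coding sequence. Tf2-7, whose annotated gene runs 84 bases past the coding sequence, had none. However, 151 of its windows were found in 2 places, as many as in Tf2-8, which has the same coding sequence and lies next to it in the same orientation. In Tf2-1, Tf2-3, Tf2-4, Tf2-6, Tf2-9 and Tf2-12, 88.9% of windows were found in 10 or more places and none in fewer than 3.

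**Figure D1:**
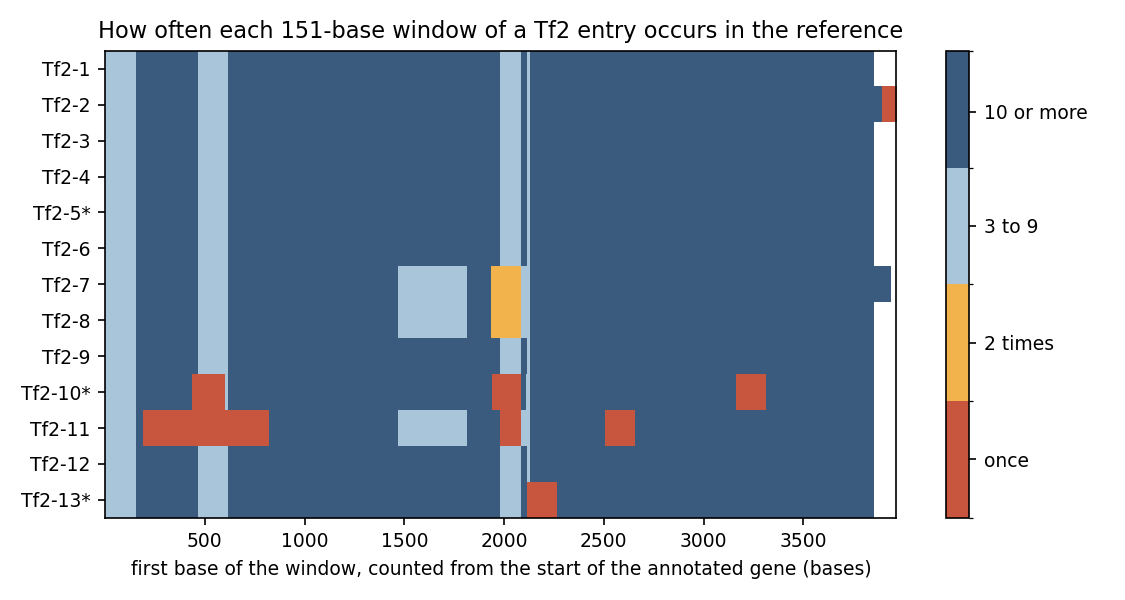
Number of places in the ASM294v3 reference where each 151-base window of a Tf2 entry was found, along the annotated gene from its first base (x axis, bases; 1 row per entry; an asterisk marks entries that are not among the 10 copies; white lies past the last window). Windows found once appear in Tf2-2, Tf2-10, Tf2-11 and Tf2-13, and windows found 2 times in Tf2-7 and Tf2-8.

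The deposited values are FPKM, in which fragments are scaled to the length of the feature and the size of the library, so levels of features of different length can be compared. Of the 10 copies, 3 were above 0 in all 6 libraries, 2 were above 0 in estradiol libraries alone, and 5 were listed at 0 in every library. Tf2-7 was highest, at 7.44, 5.86 and 4.84 FPKM in control libraries 0, 1 and 2 and at 7.79, 8.85 and 6.42 FPKM in estradiol libraries 0, 1 and 2. The groups overlapped, since control library 0 lay above estradiol library 2. Tf2-2 stood at 2.82, 2.17 and 2.17 FPKM in control libraries 0, 1 and 2, and estradiol libraries 0, 1 and 2 held 2.88, 2.67 and 2.76 FPKM, again with control library 0 inside the estradiol range. For Tf2-11 the control libraries held 1.85, 1.83 and 1.36 FPKM and the estradiol libraries 1.85, 1.81 and 1.77 FPKM, in the same order. Here control library 2 was the low one and the other 5 libraries lay between 1.77 and 1.85 FPKM. The order Tf2-7, Tf2-2, Tf2-11 held in each of the 6 libraries.

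**Figure D2:**
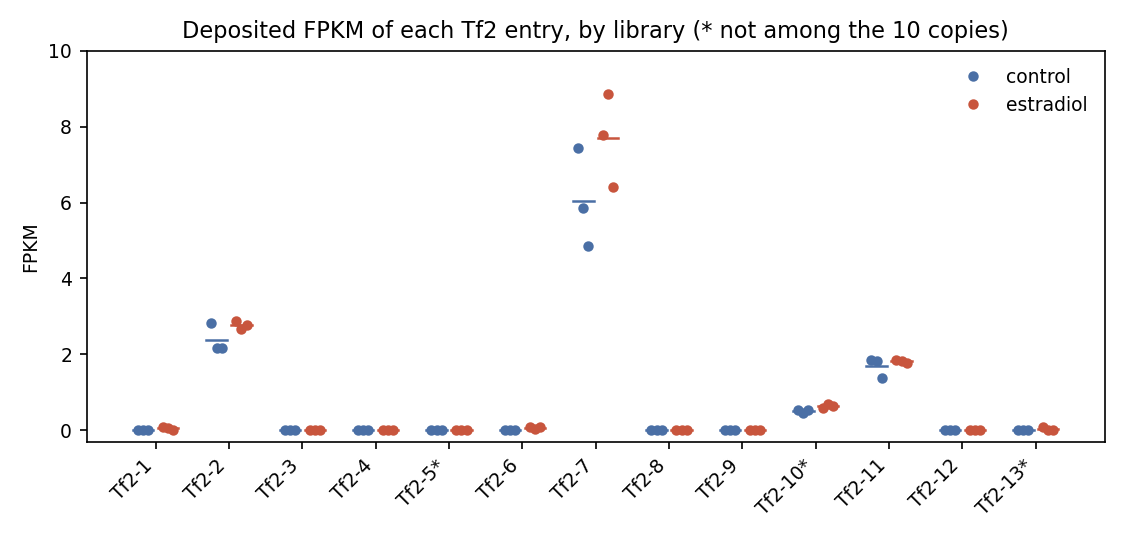
Deposited FPKM (y axis) of each Tf2 entry in 3 control and 3 estradiol libraries, 1 point per library with a line at the group mean; an asterisk marks entries that are not among the 10 copies. Tf2-7 lies between 4.84 and 8.85 FPKM, Tf2-2 and Tf2-11 below 3 FPKM, and the other copies at or near 0.

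The copies listed at 0 throughout were Tf2-3, Tf2-4, Tf2-8, Tf2-9 and Tf2-12, and a listed 0 here does not show that a copy is silent. Of the 13 Tf2 entries, 9 had no window found once, and 6 of these 9 were listed at 0 in all 6 libraries. Tf2-7, the highest entry, was also without a window found once. The 4 entries with such windows included Tf2-10, at 0.496 ± 0.0427 FPKM in controls and 0.638 ± 0.0452 FPKM with estradiol (mean ± standard deviation, SD, n = 3 libraries per group) with groups that did not overlap (all estradiol libraries lay higher in 17.1% of the features tested below), and Tf2-13, listed at 0 in 5 libraries and at 0.0842 FPKM in estradiol library 0. The same held in protein-coding features other than Tf2. Of 28 without a window found once, 21 (75.0%) were listed at 0 in all libraries, against 18 of 5050 (0.356%) with at least 20% of windows found once. Of those with some such windows but under 20%, 2 of 14 (14.3%) were listed at 0. Features without a window found once were listed at means of up to 12.35 FPKM. How the authors' tools treated reads with several matches is not given in the sources used here, so its part in these values was not tested. Tf2-7 and its neighbour Tf2-8, with the same coding sequence, were listed at a mean of 6.87 FPKM and at 0, so their values cannot be read as those of separate elements. The annotated genes of Tf2-7 and Tf2-2, the 2 highest copies, run 84 and 115 bases past the coding sequence, while that of Tf2-8 ends with it. Whether this bears on the listed values was not tested.

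The spacing of low values shows how few fragments the smallest entries hold. Multiplied by reference length, the low values of each library fell near multiples of a fixed step, taken here as the worth of 1 fragment. On that reading the libraries held about 4160000, 5390000 and 3700000 fragments in control libraries 0, 1 and 2, and about 2890000, 9520000 and 2980000 in estradiol libraries 0, 1 and 2, with the step of estradiol library 1 the least sharp. Tf2-7 then rested on about 126, 129 and 73.3 fragments in the controls and on about 92.0, 345 and 78.1 with estradiol. Tf2-6, at 0.0842, 0.0252 and 0.0806 FPKM in the estradiol libraries and 0 in the controls, corresponded to 0.97, 0.96 and 0.96 fragments, that is 1 fragment a library. Tf2-1 corresponded to 0.96 and 1.89 fragments in estradiol libraries 0 and 1. Such differences are at the limit of detection. Across the table, 59 features were at 0 in all controls and above 0 in some estradiol library, and 33 the other way round.

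Because most reads cannot be assigned between copies, the sum over the 10 copies depends less than any single value on how shared reads were divided. It was 12.1, 9.86 and 8.37 FPKM in control libraries 0, 1 and 2 and 12.7, 13.4 and 11.03 FPKM in estradiol libraries 0, 1 and 2. The groups overlapped through control library 0 alone, which lay above estradiol library 2. Without it the log2 ratio of the mean sums was 0.44 in place of 0.29, and without control library 2, the lowest, it was 0.17. Between libraries of the same column number, which the alternative with a block treats as pairs, the sum was higher with estradiol for 3 of 3 numbers, by 0.580, 3.55 and 2.66 FPKM for numbers 0, 1 and 2. Tf2-7 and Tf2-2 were also higher for 3 of 3 numbers and Tf2-11 for 1 of 3, and with the block limma called none of these copies (adjusted p of 0.231 for Tf2-7, 0.669 for Tf2-2 and 0.885 for Tf2-11). Tf2-7 and Tf2-2 make up most of the sum, so these counts are not separate observations. The share of all features higher for 3 of 3 numbers was not computed, so the counts show no rise particular to Tf2. The means were 10.1 ± 1.88 FPKM in controls and 12.4 ± 1.22 FPKM with estradiol (SD, n = 3 libraries per group), a ratio of 1.22, and the difference of 2.26 FPKM was close to the SD of the controls. Tf2-7 made up between 57.8% and 66.0% of the sum, Tf2-2 between 19.9% and 25.9% and Tf2-11 between 13.5% and 18.6%. Over all 13 entries the means were 10.6 ± 1.89 and 13.05 ± 1.24 FPKM, a ratio of 1.23 with overlapping groups. Under quantile normalization, which gives all libraries the same distribution of values, the log2 ratio of the mean sums fell from 0.29 to 0.01. The listed FPKM of all features added up to between 831139 (library 2) and 876214 (library 0) in controls. With estradiol the totals were lower, between 767792 (library 1) and 798655 (library 0). The part of these totals in the Tf2 ratio was not tested.

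**Figure D3:**
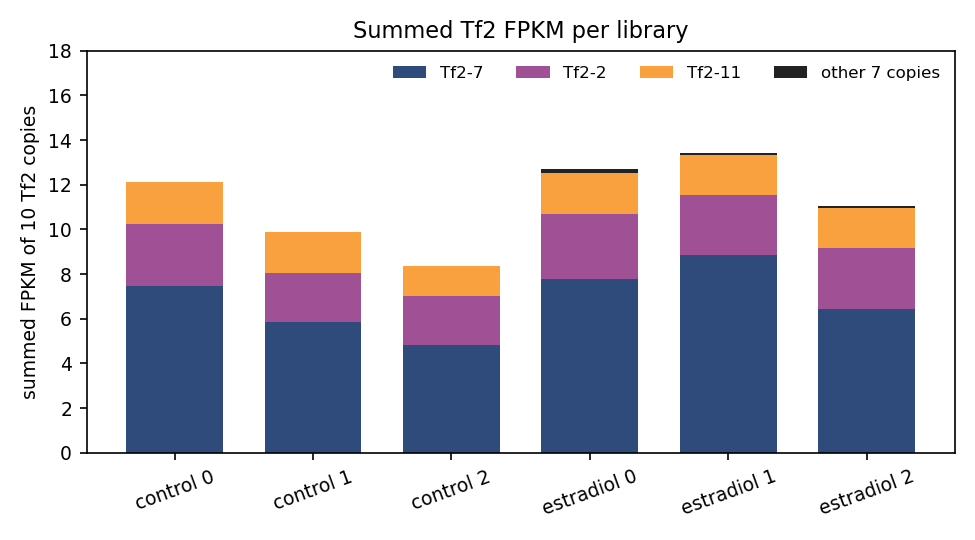
Summed FPKM of the 10 Tf2 copies (y axis, from 0) in each of the 6 libraries, stacked by copy. The sums run from 8.37 to 12.1 FPKM in controls and from 11.03 to 13.4 FPKM with estradiol, and Tf2-7 is the largest share in every library.

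The summed level was low for this transcriptome. Its mean over the 6 libraries, 11.2 FPKM, lay above 15.1% of 5108 protein-coding features, whose median was 39.4 FPKM, and the single values of Tf2-7, Tf2-2 and Tf2-11 lay above 10.4%, 5.83% and 4.78% of them. These are ranks of listed values, and whether reads with several matches were kept in them is not given in the sources used here.

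The comparison of estradiol with control libraries asks whether the treatment moved Tf2 RNA. The test was limma on log2(FPKM + 1) over all features with a mean of at least 1 FPKM, with Benjamini-Hochberg adjustment, and a feature is called at an adjusted p under 0.05. Of the 10 copies, 3 passed this minimum and 7 did not. None of the 3 was called (0 of 3, also 0 at an unadjusted p under 0.05), against 7.98% of the 6166 features tested, of which 4.07% were called higher and 3.91% lower. Of the other 7 copies, 5 were at 0 in every library, so limma could not call them without the minimum either. Tf2-6 and Tf2-1, both at the limit of detection, were not called there (limma adjusted p of 0.114 and 0.306). Under that setting 178 of 7016 features were called higher and 165 lower. The log2 change of Tf2-7 was 0.31 with a standard error (SE) of 0.18, a 95% interval from -0.12 to 0.74 and an adjusted p of 0.337 in limma. That of Tf2-2 was 0.16 (SE 0.19, interval from -0.29 to 0.61, limma adjusted p = 0.648), and that of Tf2-11 was 0.07 (SE 0.22, interval from -0.46 to 0.60, limma adjusted p = 0.881). The intervals leave room for a rise of about the size seen in the sum as well as for no difference or a fall. Their median change was 0.16, beside a median of 0.02 over all features tested. Under quantile normalization the changes of Tf2-2 and Tf2-11 turned to -0.08 and -0.20, and without control library 2 that of Tf2-11 was -0.02, none of them called. The table also holds an entry named GFP, for green fluorescent protein, at 147 ± 15.3 FPKM in controls and 714 ± 141 FPKM with estradiol (SD, n = 3 libraries per group), which limma called higher (log2 change 2.26, adjusted p = 0.00158).

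Genes of factors linked to Tf2 or to the related element Tf1 were mostly not called either. The list held 37 genes for silencing, activating, integration, replication fork, Ku and RNA-decay or RNA interference factors, all of them tested, of which 2 were called higher, 1 lower and 34 not, which is 8.11% called beside 7.98% of all features, with a median log2 change of 0.02. The CENP-B homologue genes were close in both groups. abp1 was at 32.7 ± 1.46 FPKM in controls and 31.8 ± 4.12 FPKM with estradiol (limma adjusted p = 0.829), and cbh1 had a log2 change of 0.11 (limma adjusted p = 0.364). For cbh2 the change was -0.12, with 0.361 as the adjusted p of limma. The HIRA genes hip1, hip3 and slm9 had log2 changes of 0.03, -0.13 and 0.19 and limma adjusted p of 0.856, 0.315 and 0.121. slm9 was the one of these whose groups did not overlap, a pattern seen in 31.2% of all features tested. set1, which encodes the histone H3 lysine methyltransferase of its complex, had a log2 change of -0.09 (limma adjusted p = 0.381), and the 8 genes of that list ran from -0.13 to 0.20. sre1 was at 33.6 ± 2.78 FPKM in controls and 34.1 ± 3.04 FPKM with estradiol (limma adjusted p = 0.917), and neither scp1, the sterol sensor gene, nor ofd1, whose product promotes Sre1 breakdown, was called. The 5 histone deacetylase genes, clr3, clr6, sir2, hst2 and hst4, ran from -0.11 to 0.18 and were not called.

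The members of this list that were called were fft3, dcr1 and pcr1. fft3, which encodes a chromatin remodeller of the Fun30 family, was at 87.6, 87.2 and 80.4 FPKM in control libraries 0, 1 and 2 and at 129.9, 117 and 116 FPKM in estradiol libraries 0, 1 and 2. It rose with a log2 change of 0.50 (SE 0.07, limma adjusted p = 0.0126). No estradiol library reached down to the controls, as in 17.1% of all features tested. The call was lost without control library 1 or estradiol library 1, with a highest adjusted p of 0.0531. dcr1, the Dicer gene of RNA interference, rose from 22.8 ± 1.45 to 28.5 ± 0.342 FPKM (log2 change 0.31, limma adjusted p = 0.0479). Its call was lost without any single library (highest adjusted p = 0.149), under quantile normalization (0.106), without the minimum on the mean (0.0564), under median-ratio scaling (0.055) and without the intensity trend (0.0553). pcr1 encodes the partner of Atf1, a stress factor that guides integration of Tf1 in fission yeast. It fell from 33.2 ± 1.83 to 24.8 ± 0.728 FPKM (log2 change -0.41, limma adjusted p = 0.0208), a call that was lost without any library but estradiol 0 (highest adjusted p = 0.0851). sap1, the gene of a fork barrier protein that also directs Tf1 insertion, had a log2 change of -0.20 (limma adjusted p = 0.0686), and was called lower with the column number as a block (adjusted p = 0.0411), where 16.7% of all features were called, and without the minimum on the mean (0.0443). The other Fun30 genes, fft1 and fft2, and the exosome gene rrp6 were not called.

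**Figure D4:**
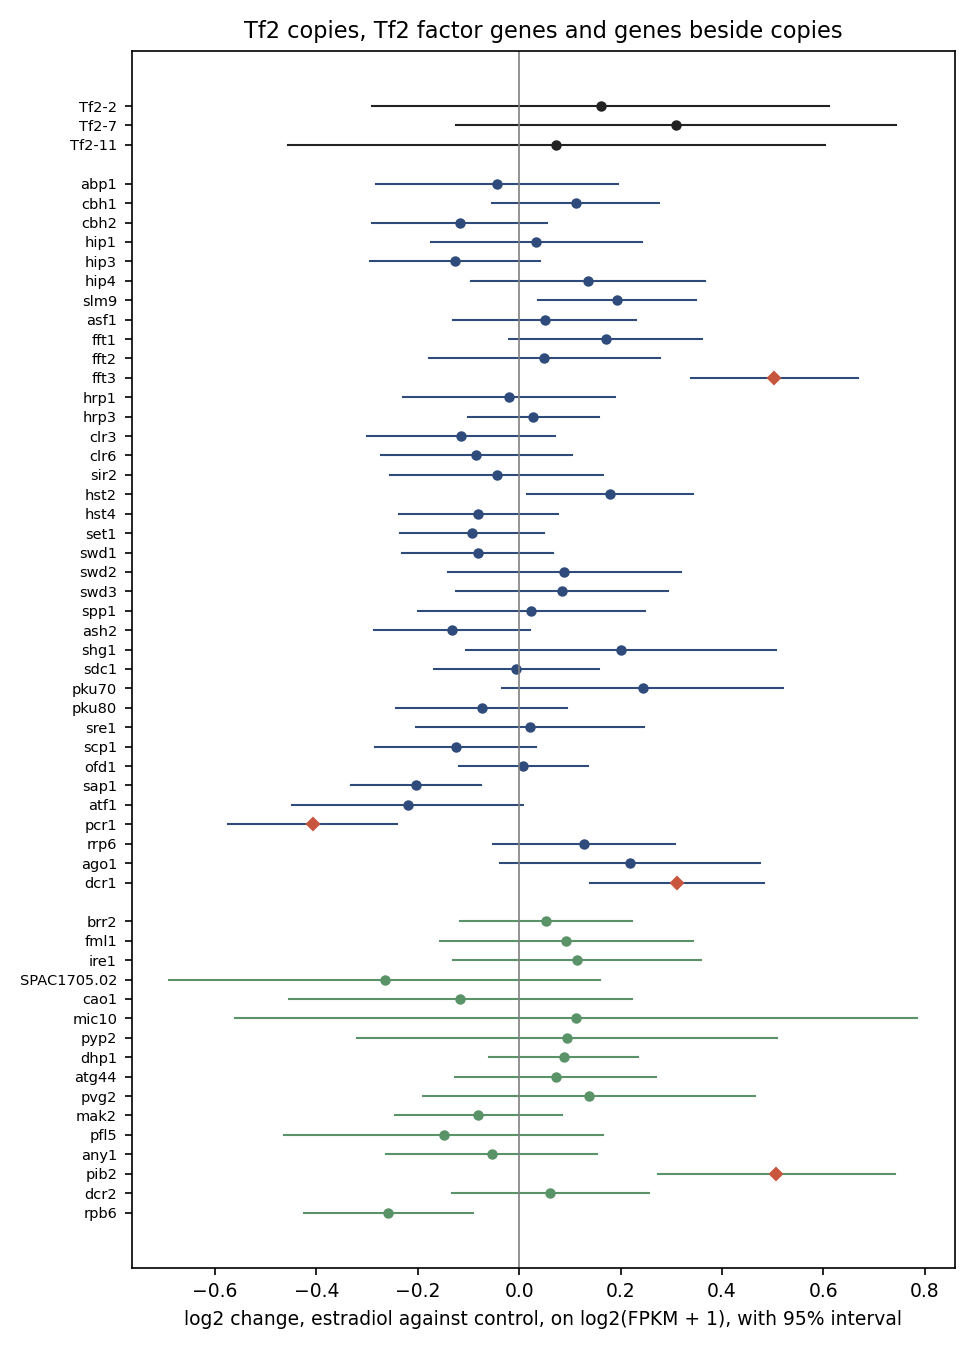
Log2 change of estradiol against control on the log2(FPKM + 1) scale (x axis), with limma's 95% interval, for the 3 tested Tf2 copies (black), 37 factor genes (blue) and 16 tested genes beside copies (green); diamonds in red are called. The intervals of the Tf2 copies all include 0, and fft3, dcr1, pcr1 and pib2 are the called genes.

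The protein-coding genes beside the copies were examined next. The nearest protein-coding genes on either side of the 10 copies are 18 genes, since Tf2-7 and Tf2-8 have the same ones, and they lie between 437 and 7510 bases from a copy. Of these, 16 were tested, 1 was called higher, 0 lower and 15 not, which is 6.25% called beside 7.98% of all features, with a median log2 change of 0.07. The called one was pib2, which lies 697 bases from Tf2-9, and whose product acts in TORC1 signalling at the vacuole in budding yeast. It was at 17.1 ± 0.211 FPKM in controls and at 21.9, 24.8 and 27.9 FPKM in estradiol libraries 0, 1 and 2, with a log2 change of 0.51 (SE 0.10, limma adjusted p = 0.0287). The call was lost without any library but estradiol 0 (highest adjusted p = 0.104), under quantile normalization (0.0666) and without the minimum on the mean (0.0578). any1, on the other side of Tf2-9, had a log2 change of -0.05 (limma adjusted p = 0.752). rpb6, a subunit gene of the nuclear RNA polymerases, lies 902 bases from Tf2-12. Its log2 change was -0.26 (limma adjusted p = 0.0718, and 0.0161 with the block, where 16.7% of all features were called).

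The 2 neighbours below the minimum for testing were amt3 and SPBC1289.14. amt3, an ammonium transporter gene 757 bases from Tf2-3, was listed at 0.155 FPKM in control library 1 and at 0 in the other controls, and at 0.730, 0.567 and 0.418 FPKM in estradiol libraries 0, 1 and 2. With no minimum on the mean, limma called it higher (log2 change 0.58, adjusted p = 0.0471), as it did 178 of 7016 features. The mean of amt3 over all libraries was 0.312 FPKM, near the floor, and the fragments behind its values were not computed. Beside the highest copy, Tf2-7, mic10 was at 117 ± 31.0 FPKM in controls and 128 ± 42.1 FPKM with estradiol (limma adjusted p = 0.852). mic10 encodes a subunit of the mitochondrial inner membrane organizing system. Whether strand was kept in the libraries or used in counting is not given in the sources used here, so RNA from the other strand of a copy may enter its value. The reference places 22 long non-coding RNAs (lncRNAs) over the 10 copies, between 1 and 3 for each, and none of them is a feature of the deposited table.

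Tf2 sequence was also found outside the annotated entries. On chromosome I, from 2939711 to 2941777 of ASM294v3, 1297 windows matched Tf2-1 exactly. The lncRNA features SPNCRNA.862 and SPNCRNA.863 were taken to overlap this stretch, but neither the overlap nor its extent was measured. Their values therefore cannot be read as those of Tf2 sequence. SPNCRNA.862 was at 11.7, 12.6 and 14.4 FPKM in control libraries 0, 1 and 2 and at 18.3, 17.05 and 23.6 FPKM in estradiol libraries 0, 1 and 2. All its estradiol libraries lay higher, as in 17.1% of all features tested. Its limma adjusted p was 0.0575, and 0.0184 with the block, where 16.7% of all features were called. SPNCRNA.863 was at 37.6 ± 11.3 FPKM and 28.4 ± 3.84 FPKM, with a limma adjusted p of 0.322.

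The features whose pattern over the 6 libraries was most like the Tf2 sum are a description, since 89 of 6163 features reached a Pearson correlation above 0.9 with it. The 5 highest were SPBC13E7.07 (0.992), fal1, a DEAD-box RNA helicase gene (0.982), smp4 (0.979), srp72, a signal recognition particle gene (0.979), and SPNCRNA.1597 (0.975). For all 5 the control and estradiol libraries overlapped, and limma called none of them (adjusted p between 0.142 and 0.491). Since they were picked for their likeness to the sum, whose groups overlap, this is no separate observation.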

How the data were processed

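RNA was depleted of ribosomal RNA and sequenced as paired 151-base reads on a MiSeq, from libraries of a TruSeq RNA kit, per the labels' protocols, which do not say whether strand was kept. The authors deposited FPKM values, 1 for every feature in every library. The submitters' processing notes list CASAVA 1.4, Cuffdiff and TopHat2, without roles or settings. The sources used here do not give the build, the annotation or the treatment of reads with several matches. The table's columns were placed in groups by the condition number they share with the sample titles, and their numbers 0 to 2 could not be tied to the titles' replicates.

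Of 7016 features, 6166 with a mean of at least 1 FPKM were tested on log2(FPKM + 1) with limma (version 3.58.1, R 4.3.3), 2-sided, with an intensity trend and no covariates, and adjusted over all of them. Changes are on that scale, which understates those of low features. The test was also run on simulated data that had the spreads of the main fit. No test was made on the Tf2 sum. Gene names, coordinates and windows came from ASM294v3, to which 6861 of the identifiers matched. Deviations from group means correlated at 0.152, 0.212 and 0.146 between libraries of the same column number, so the number was treated as pairing them and used as a block in an alternative; the labels do not say what such libraries share. The factor genes, the neighbours (the nearest protein-coding gene on each side) and the named genes (all copies, the called genes of both lists, 8 set factor genes and the 5 features most like the sum) followed a written rule, but the members and lists were chosen with earlier results of these data known. Steps between low values were fitted for features of at least 1500 bases, and the fragment numbers drawn from them are approximate. The alternatives changed the pseudocount, the minimum on the mean, the scaling, the intensity trend or the block, or left out each library in turn.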

Additional observations from a re-analysis of the deposited data

How the results depend on the processing

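The 3 tested Tf2 copies were not called by limma under any alternative that was run, and none of them reached a minimum mean of 10 FPKM, so that alternative gave no value for them. Quantile normalization turned the log2 changes of Tf2-2 and Tf2-11 to -0.08088 and -0.1951, and brought the log2 ratio of the Tf2 sums to 0.008957 from 0.2914. With single libraries left out, the change of Tf2-11 ran from -0.0156 (without control library 2) to 0.12, and the ratio of the sums from 0.1722 to 0.4414. With copies left out it ran from 0.2054 to 0.3257, and median-ratio scaling, the replicate block and the sum over all 13 entries kept it within the spread between libraries. As 1 row in the limma fit, the sum had a log2 change of 0.28 with an SE of 0.15. Over all features, quantile normalization called 144 higher and 108 lower, and the replicate block, a pairing by column number, called 506 and 524. With a library left out, between 49 and 242 were called higher and between 37 and 207 lower. Among the factor genes, 1 rather than 2 was called higher without a filter on low values, under quantile normalization, under median-ratio scaling and without the intensity trend, and 2 rather than 1 were called lower without the filter and with the block. With a library left out, 0 to 1 were called higher and 0 to 1 lower. Among the genes beside copies, 1 was called higher without the filter, but it was amt3, at a mean of 0.312 FPKM, and not pib2. Of the same genes, 0 were called higher under quantile normalization, 1 was called lower with the block, and with a library left out 0 to 1 were called higher. The changes of sre1 and SPNCRNA.1597 turned to -0.01101 and -0.05238 under quantile normalization. With a library left out, abp1 ran from -0.1445 to 0.02058, sre1 from -0.04644 to 0.08234 and hip1 from -0.02017 to 0.1055. The cause of these shifts was not tested. The libraries held about 2890000 to 9520000 fragments, and of the 10 copies those other than Tf2-2, Tf2-7 and Tf2-11 were listed at the equivalent of 0 to 2 fragments a library. Differences of that size are at the limit of detection.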
